A study of Arabidopsis thaliana with 8 samples.

Results

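The Calvin cycle and photorespiration are described here through 35 Arabidopsis thaliana genes, of the 64512 loci in the table. The genes were taken by locus ID, from a list drawn up by pathway with earlier results of these data known: 23 encode the enzymes and regulators of the Calvin cycle and 12 encode photorespiratory enzymes. RNA was sequenced from whole seedlings of the wild type, ecotype Columbia, grown for 7 days, with 2 libraries in each of 4 groups. The control group (CTRL) had no heat treatment. The long heat stress group (LHS) was held at 37 °C for 30 hours. The groups LHSR12 and LHSR84 had the same heat treatment and then recovered at 22 °C for 12 or 84 hours. All groups share the genotype and ecotype, and LHSR12 and LHSR84 share the heat treatment with LHS. The labels do not give the hour of harvest or say whether the replicates were grown apart, so p-values measure the spread between these libraries, which may be technical. The age of the plants at harvest and the time since heat cannot be told apart, because the plants grew on during the treatment.

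The Calvin cycle fixes CO2 in the chloroplast stroma. Rubisco joins CO2 to ribulose bisphosphate, phosphoglycerate kinase and glyceraldehyde phosphate dehydrogenase reduce the product to triose phosphate, and aldolases, bisphosphatases, transketolase, isomerases and phosphoribulokinase rebuild the acceptor. Rubisco also reacts with O2, and photorespiration recovers the phosphoglycolate so formed, through the chloroplast, the peroxisome and the mitochondrion, at the cost of released CO2 and ammonia. Oxygenation is known to gain on carboxylation as leaves warm, and Rubisco activase, which clears inhibitory sugar phosphates from Rubisco, is known as a heat-labile protein.

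Values are scaled reads, that is reads at a locus divided by 1 factor per library, and all 35 genes passed the filter of a mean of at least 1. A gene was called higher or lower where limma's adjusted p over all 27638 loci tested was below 0.05. The 7 libraries whose reads could be recovered held 18891358 to 28341736 reads at gene loci. The whole-seedling label was checked with 10 root markers, which took 0.00488% to 0.0155% of the summed value of gene loci, and 18 antenna genes of green tissue, which took 0.537% to 8.41%. Both kinds were present in every group. Root markers were lower after heat, where 8 of 10 were called, against 31.1% of all loci. They took 0.00488% and 0.00591% of the summed value after heat, against 0.0128% to 0.0155% in the other groups. At 12 hours 4 were called lower than in the control and 2 higher (SCR and SHR), against 20% and 24.8% of all loci. The median log2 fold change of the 10 was -1.34 at 12 hours and -0.96 at 84 hours. The part of tissue make-up in the results was not tested. In such bulk samples, fewer green cells and less RNA of these genes per cell cannot be told apart. Of the 35 genes, 26 were higher in replicate 1 than in replicate 2 of the control, against 22 in LHS, 4 in LHSR12 and 31 in LHSR84, with a median difference between replicates of 0.07 to 0.21 on the log2 scale.

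Stretches of 250 bases upstream of the annotated gene start are shown for 4 genes: CP12-2 had the largest fold change, TKL1 and TKL2 were called in opposite directions after heat, and RBCS2B carries the motif arrangement known from Rubisco small subunit promoters. The sequences were read from the RefSeq genome of build TAIR10.1 on the strand of the gene, RBCS2B at chr5:15382072-15382321 on the minus strand, CP12-2 at chr3:23090694-23090943, TKL1 at chr3:22453418-22453667 and TKL2 at chr2:18672247-18672496, the last 3 on the plus strand. Capitals mark the G-box CACGTG and the I-box GATAAG, or its reverse complement.
RBCS2B: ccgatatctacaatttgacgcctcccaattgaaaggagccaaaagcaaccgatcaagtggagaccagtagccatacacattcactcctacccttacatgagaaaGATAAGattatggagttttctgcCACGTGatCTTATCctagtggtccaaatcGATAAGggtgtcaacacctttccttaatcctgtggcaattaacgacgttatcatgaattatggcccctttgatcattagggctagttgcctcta
CP12-2: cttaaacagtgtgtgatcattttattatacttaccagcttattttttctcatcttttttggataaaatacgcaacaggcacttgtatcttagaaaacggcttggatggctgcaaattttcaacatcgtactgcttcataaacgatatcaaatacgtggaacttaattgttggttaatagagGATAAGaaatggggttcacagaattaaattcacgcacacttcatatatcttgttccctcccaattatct
TKL1: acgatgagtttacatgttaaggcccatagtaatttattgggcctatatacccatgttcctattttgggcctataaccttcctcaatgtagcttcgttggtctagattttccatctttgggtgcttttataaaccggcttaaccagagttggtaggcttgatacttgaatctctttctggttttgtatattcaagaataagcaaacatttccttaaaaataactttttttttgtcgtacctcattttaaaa
TKL2: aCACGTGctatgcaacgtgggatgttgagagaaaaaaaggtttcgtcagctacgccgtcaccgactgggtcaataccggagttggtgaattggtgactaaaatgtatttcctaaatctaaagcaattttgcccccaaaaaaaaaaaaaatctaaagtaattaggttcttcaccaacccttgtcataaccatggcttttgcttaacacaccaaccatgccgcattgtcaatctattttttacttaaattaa
In RBCS2B, the I-box began 146, 115 and 94 bases before the start and the G-box 123 bases before it, so that the G-box lay between I-boxes. RBCS1A, RBCS1B and RBCS3B held neither motif in this window. Their annotated exons are longer (1268, 1894 and 1410 bases) than those of RBCS2B (935), so the windows may not cover the same part of the promoter. Sequence outside the windows was not searched. CP12-2 held 1 I-box, 69 bases before the start. TKL2 held 1 G-box at 249 bases, and TKL1 held neither. Over both strands, the G-box was found upstream of 6 of the 35 genes (RBCS2B, PRK, FBPase, TKL2, GLDP1 and GGT1) and of 6.49% of all 27443 protein-coding genes. The I-box was found upstream of 5 genes (RBCS2B, RCA, FBPase, CP12-2 and GLDP2) and of 12.3% of all. The evening element AAAATATCT and a heat shock element (GAA, TTC and GAA with gaps of 2 bases) were found upstream of 0 of the 35 genes and of 2.36% and 0.386% of all. A match describes the letters of the window and no more.

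The first question was what 30 hours at 37 °C did to the RNA of both pathways. After heat, 30 of the 35 genes were lower than in the control, 2 were higher (FBA3 and TKL2) and 3 were not called (CP12-1, TPI and GOX1). Over all loci tested, 31.1% were called lower and 35.4% higher. The median log2 fold change was -1.30 over the 35 genes and 0.09 over all loci. The Calvin cycle had 19 of 23 genes lower and photorespiration 11 of 12. The share of the summed value of gene loci held by the 23 Calvin cycle genes was 3.54% and 3.56% in the control libraries and 1.30% and 1.31% after heat. The 12 photorespiratory genes held 0.963% and 0.83% in the control and 0.34% and 0.308% after heat. The groups did not overlap for either share. The count of lower genes was 25 to 30 when each library was left out in turn. The calls of GAPA-1, PGK2, RPE, GLYK and GGT1 were those that at least 1 such fit lost, each in a fit without LHS replicate 2 and some in fits without other libraries.

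**Figure D1:**
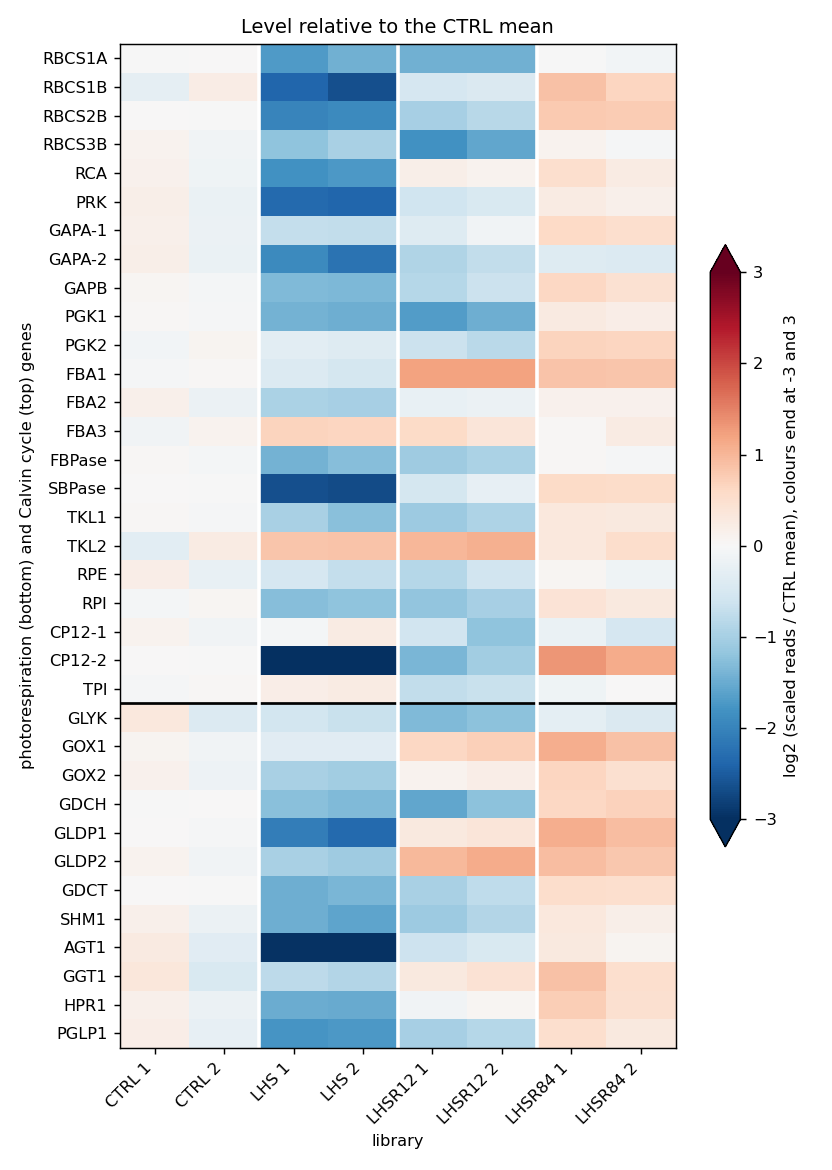
Heat map of the 35 genes (rows) in the 8 libraries (columns), coloured by log2 of scaled reads over the control mean, with colours ending at -3 and 3 and a line between the Calvin cycle genes (top) and the photorespiratory genes (bottom). Most rows are blue in both LHS libraries, fewer in LHSR12, and most are pale or red in LHSR84; FBA3 and TKL2 are red after heat.

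After 12 hours of recovery, 21 of the 35 genes were still lower than in the control and 5 were higher (FBA1, FBA3, TKL2, GOX1 and GLDP2), against 20% and 24.8% of all loci. The median log2 fold change was -0.71 over the 35 genes and 0.07 over all loci. By pathway, 16 of 23 Calvin cycle genes were lower and 3 higher, while 5 of 12 photorespiratory genes were lower and 2 higher. The Calvin cycle share was 2.21% and 2.34%, below both control libraries. The photorespiratory share was 0.913% and 1.01%, which overlapped the control. The count of lower genes was 14 without LHSR12 replicate 1 and 11 when only CTRL and LHSR12 entered the fit, where 3 genes were higher. Scaling each library to its gene loci moved the share of all calls that were higher from 55.3% to 67.2% in this comparison, from 63.8% to 75.1% for LHSR84 against CTRL and from 50% to 61.3% for LHSR12 against LHS.

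After 84 hours, 12 of the 35 genes were higher than in the control and 0 were lower, against 8.59% and 4.87% of all loci. The 12 were RBCS1B, RBCS2B, PGK2, FBA1, SBPase and CP12-2 of the Calvin cycle and GOX1, GOX2, GDCH, GLDP1, GLDP2 and HPR1 of photorespiration. The median log2 fold change was 0.41 over the 35 genes and 0.00 over all loci. Both shares lay above both control libraries, the Calvin cycle at 4.63% and 4.37% and photorespiration at 1.55% and 1.39%. Within the Calvin cycle share, the 4 Rubisco small subunit genes held 2.38% and 2.27% at 84 hours, against 1.91% and 2.02% in the control. The count of higher genes was 0 when only CTRL and LHSR84 entered the fit. It was 5 without LHSR84 replicate 1, 6 without LHSR84 replicate 2, 6 without LHS replicate 1, 6 without LHS replicate 2 and 8 without LHSR12 replicate 1 or 2. It was 11 without CTRL replicate 2 and 13 without CTRL replicate 1. Other settings raised it, to 15 with TMM scaling, 16 with DESeq2 and 17 under scaling to gene loci. CP12-2, FBA1, GOX1, GLDP1 and GLDP2 held their call in each of the alternatives other than the fit on 2 groups. The count of lower genes was 2 without CTRL replicate 2, and in the full fit the lowest log2 fold change was -0.38, that of GAPA-2. The comparisons with the control share its 2 libraries.

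**Figure D2:**
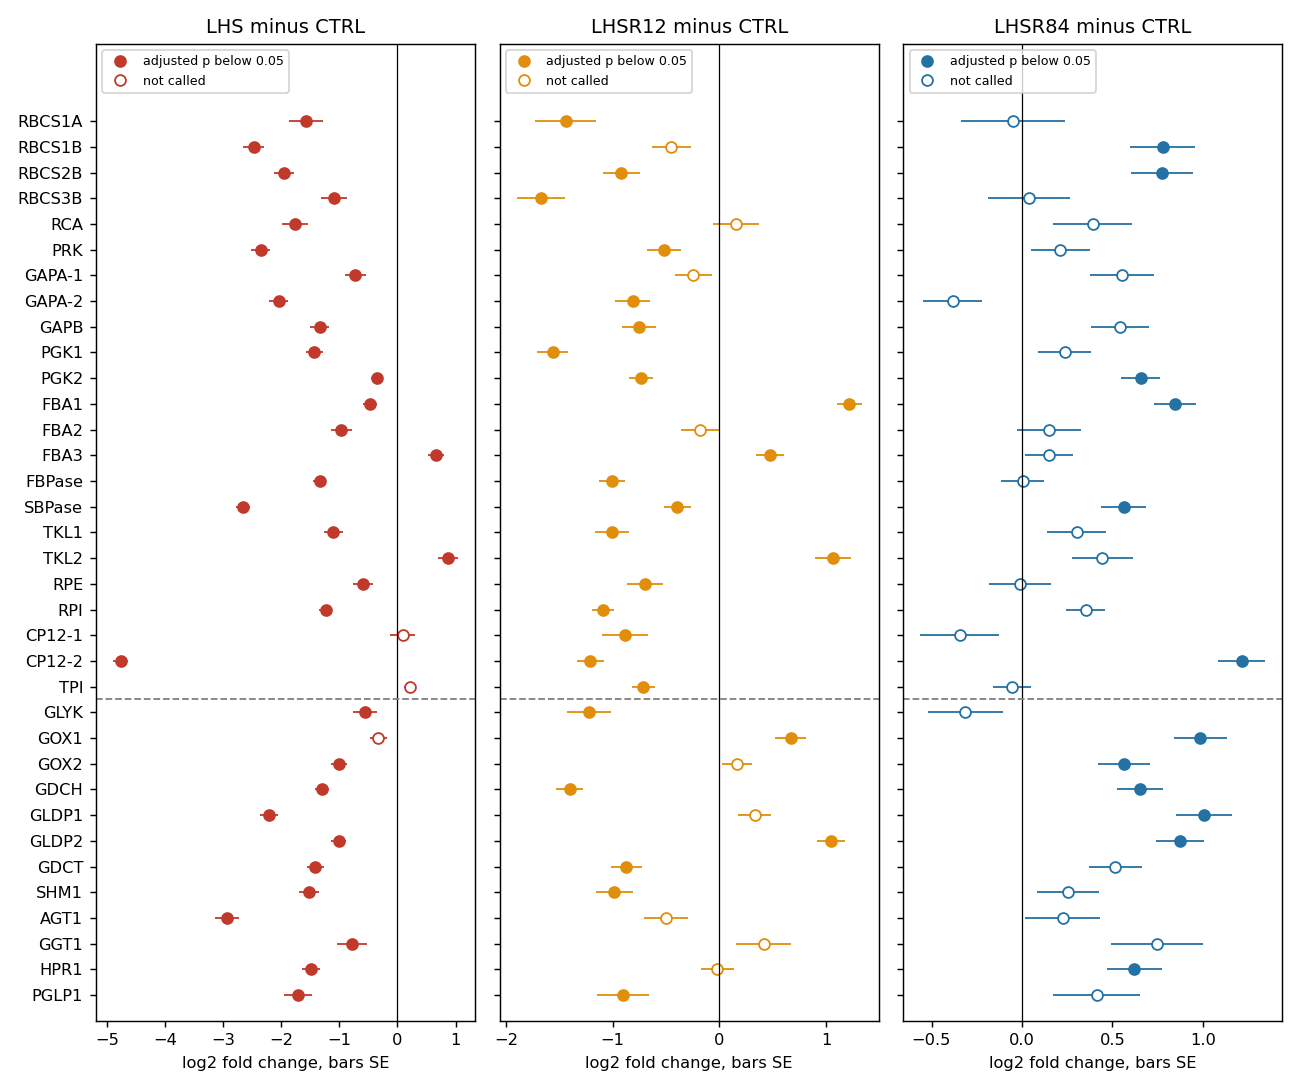
Log2 fold change of each gene against the control after heat, 12 hours and 84 hours of recovery, with bars of 1 SE from limma; filled points passed an adjusted p of 0.05, the dashed line parts Calvin cycle genes from photorespiratory genes, and the x axes differ between panels. The points lie mostly left of 0 after heat, where CP12-2 is the lowest at -4.76, on both sides after 12 hours and mostly right of 0 after 84 hours.

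The Rubisco small subunit, RBCS, is made by 4 nuclear genes with near-identical coding sequences, of which RBCS1B, RBCS2B and RBCS3B lie in a row on chromosome 5, so reads could be split or lost between them and each level is uncertain. RBCS1A (AT1G67090, chr1:25048158-25049667 in TAIR10.1) was at 288128 and 294338 scaled reads in the control, 89439 and 107020 after heat, 106439 and 107885 at 12 hours and 288285 and 273901 at 84 hours. It was low in LHS and LHSR12 alike, and the LHSR84 libraries overlapped the control. Its log2 fold change against the control was -1.57 ± 0.29 (SE) after heat, 2.98-fold lower (adjusted p = 0.00132), and -1.44 at 12 hours (adjusted p = 0.00391, a call lost without LHSR12 replicate 1). Both calls of RBCS1A were lost when only the 2 groups compared entered the fit. RBCS3B (AT5G38410) was at 128315 and 111310 in the control, 52015 and 60597 after heat, 34257 and 40945 at 12 hours and 128181 and 117787 at 84 hours. It fell by 1.09 on the log2 scale after heat (adjusted p = 0.00264, lost when only CTRL and LHS entered the fit). At 12 hours it stood at -1.67 (adjusted p = 0.000487), with the LHSR12 libraries below those of LHS but no call between them (adjusted p = 0.0501).

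RBCS2B and RBCS1B were called higher at 12 hours than after heat. RBCS2B (AT5G38420) was at 61788 and 61039 in the control, 15529 and 16226 after heat, 30634 and 34482 at 12 hours and 106337 and 103405 at 84 hours. It was 3.87-fold lower after heat (log2 -1.95 ± 0.17, adjusted p = 1.83e-05), rose 2.05-fold from LHS to LHSR12 (adjusted p = 0.000841) and was 1.71-fold above the control at 84 hours (adjusted p = 0.0196). The call at 84 hours was lost without any 1 LHS, LHSR12 or LHSR84 library and when only CTRL and LHSR84 entered the fit. RBCS1B (AT5G38430), the least abundant of the 4 per kilobase, was at 9686 and 13671 in the control, 2257 and 1891 after heat, 8182 and 8666 at 12 hours and 21385 and 18216 at 84 hours. Its libraries did not overlap between heat and any other group. It fell 5.57-fold with heat (log2 -2.48 ± 0.18, adjusted p = 6.58e-06) and rose 4.07-fold in the first 12 hours of recovery (adjusted p = 2.58e-05). Per kilobase of exon, RBCS1A was the highest of the 35 genes in each group, at 229679 ± 3463 (SD, n = 2) in the control and 77468 ± 9804 after heat.

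Rubisco activase, RCA (AT2G39730), was at 92732 and 77972 scaled reads in the control, 24428 and 25698 after heat, 96936 and 92307 at 12 hours and 121989 and 101814 at 84 hours. The LHS libraries were the low ones, and the LHSR12 libraries overlapped the control. It fell 3.39-fold with heat (log2 -1.76 ± 0.22, adjusted p = 0.000129) and rose 3.78-fold over the first 12 hours of recovery (adjusted p = 9.69e-05), while RBCS1A showed no call over those 12 hours (log2 0.13, adjusted p = 0.713). The gene overlaps AT2G39725 on the opposite strand, which was at 36.6 to 144 scaled reads, and whether counting used strand is not given in the sources used here.

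The reduction steps differed between relatives. PGK1 (AT3G12780) and PGK2 (AT1G56190), plastid phosphoglycerate kinases, were at 36799 and 35004, and at 5192 and 5777, in the control. After heat PGK1 was at 13518 and 13071 and PGK2 at 4385 and 4214. PGK1 fell by 1.43 on the log2 scale (adjusted p = 4.2e-05) and PGK2 by 0.35 (adjusted p = 0.02, -0.43 to -0.27 over the settings). The PGK2 call was lost without CTRL replicate 2, LHS replicate 1 or LHS replicate 2, with edgeR, with DESeq2 and when only CTRL and LHS entered the fit. At 12 hours PGK1 was at 11284 and 13062, no higher than after heat, and PGK2 at 3480 and 3111. PGK2 fell a further 0.39 on the log2 scale from LHS to LHSR12 (adjusted p = 0.0139). That call was lost without LHS replicate 1 or LHSR12 replicate 2, with edgeR and under scaling to gene loci, where the log2 fold change was -0.12. At 84 hours PGK1 was at 43565 and 41007 and PGK2 at 8730 and 8524, a level above the control (log2 0.66, adjusted p = 0.00571, lost without LHSR84 replicate 1). The PGK2 call at 84 hours was also lost when only CTRL and LHSR84 entered the fit.

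The subunits of the NADP-dependent glyceraldehyde phosphate dehydrogenase are GAPA, from 2 genes, and GAPB. GAPA-1 (AT3G26650) was at 31471 and 25358 in the control, 17286 and 16960 after heat, 21597 and 26388 at 12 hours and 42686 and 40240 at 84 hours. GAPA-2 (AT1G12900) was at 16702 and 12775, 3936 and 3190, 7839 and 8815, and 11340 and 11073 in the same order. GAPA-2 had the larger fall with heat, at -2.04 on the log2 scale (adjusted p = 1.1e-05) against -0.72 for GAPA-1 (adjusted p = 0.00596, lost without LHS replicate 2). At 84 hours GAPA-1 stood above both control libraries and GAPA-2 below both, without a call for either (log2 0.55 and -0.38). GAPB (AT1G42970) was at 40617 and 37278 in the control and 15459 and 15365 after heat, a fall of 1.34 on the log2 scale (adjusted p = 0.000115). It was at 21474 and 24776 at 12 hours and 59651 and 53736 at 84 hours. Triose phosphate isomerase, TPI (AT2G21170), which interconverts the products, was among the genes not called after heat, at 7594 and 7926 in the control and 8923 and 9158 in LHS (log2 0.22). TPI was lower at 12 hours, at 4615 and 4849 (log2 -0.71 ± 0.11, adjusted p = 0.000839), and at 7140 and 7813 at 84 hours.

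Of the regeneration genes among the 35, sedoheptulose bisphosphatase and phosphoribulokinase fell most with heat. SBPase (AT3G55800, chr3:20709294-20711640 in TAIR10.1) was at 14090 and 13862 in the control, 2251 and 2187 after heat, 9627 and 11714 at 12 hours and 20833 and 20413 at 84 hours. No group overlapped another. It was 6.30-fold lower after heat (log2 -2.65 ± 0.13, adjusted p = 8.53e-07) and rose 4.78-fold in the first 12 hours (adjusted p = 2.85e-06). PRK (AT1G32060), which makes the CO2 acceptor, was at 34907 and 26926 in the control, 6132 and 5899 after heat, 20341 and 22528 at 12 hours and 36813 and 34287 at 84 hours. It was 5.10-fold lower after heat (log2 -2.35 ± 0.16, adjusted p = 5.09e-06). Both stood below the control at 12 hours by 0.40 (SBPase, adjusted p = 0.0313) and 0.52 (PRK, adjusted p = 0.0303). These calls were lost under scaling to gene loci, when only CTRL and LHSR12 entered the fit and in most fits without 1 library. The SBPase call was also lost with edgeR. PRK overlaps AT1G32070 on the opposite strand, at 1113 to 1893 scaled reads. The other bisphosphatase, FBPase (AT3G54050), moved less, from 14155 and 13264 to 5138 and 5702 after heat (log2 -1.34, adjusted p = 1.96e-05), and was at 6522 and 7124 at 12 hours and 14152 and 13324 at 84 hours, where it overlapped the control.

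The 3 plastid aldolases were called in different directions. FBA2 (AT4G38970), the most abundant per kilobase, was at 49362 and 38832 in the control, 22723 and 22034 after heat, 37636 and 39352 at 12 hours and 48585 and 48581 at 84 hours. It fell by 0.97 on the log2 scale with heat (adjusted p = 0.00136). FBA1 (AT2G21330) was at 8702 and 9221, 6791 and 6173, 20798 and 20807, and 16187 and 16037. FBA1 thus went from below the control after heat (log2 -0.47, adjusted p = 0.00703) to 2.32-fold above it at 12 hours (log2 1.22 ± 0.12, adjusted p = 7.73e-05) and 1.80-fold above it at 84 hours (adjusted p = 0.00247). FBA3 (AT2G01140) took another course, at 4658 and 5418 in the control, 7968 and 7926 after heat, 7500 and 6505 at 12 hours and 5163 and 6013 at 84 hours. It was higher after heat (log2 0.66 ± 0.13, adjusted p = 0.00216) and at 12 hours (log2 0.48, adjusted p = 0.0185). The call at 12 hours was lost without CTRL replicate 1, LHS replicate 1, LHS replicate 2 or LHSR12 replicate 1. It was also lost when only CTRL and LHSR12 entered the fit. FBA3 overlaps AT2G01130 on the same strand, which was lower in LHS (378 and 450) than in the control (754 and 750 scaled reads).

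Transketolase moves carbon units between sugar phosphates and is made by a major and a minor gene. TKL1 (AT3G60750), the major one, was at 39136 and 37303 in the control, 19548 and 16123 after heat, 17933 and 20140 at 12 hours and 47372 and 46842 at 84 hours. TKL2 (AT2G45290) was at 966 and 1429, 2137 and 2154, 2405 and 2506, and 1490 and 1716. They moved in opposite directions with heat: TKL1 fell by 1.11 on the log2 scale (adjusted p = 0.000384), and TKL2 rose 1.83-fold (log2 0.87 ± 0.17, adjusted p = 0.00197). At 12 hours both kept these sides of the control (log2 -1.01 and 1.06, adjusted p = 0.00132 and 0.00125). RPE and RPI, which interconvert the pentose phosphates, were lower after heat and at 12 hours. RPI (AT3G04790) was at 4645 and 4966 in the control, 1994 and 2078 after heat, 2127 and 2390 at 12 hours and 6382 and 5882 at 84 hours. It fell by 1.24 on the log2 scale with heat (adjusted p = 1.61e-05). RPE (AT5G61410) was at 8882 and 6641, 5507 and 4730, 4286 and 5240, and 8123 and 7133, with a log2 fold change of -0.59 after heat (adjusted p = 0.0148) and -0.70 at 12 hours (adjusted p = 0.0109). The RPE call after heat was lost without CTRL replicate 1, LHS replicate 1 or LHS replicate 2, that at 12 hours without LHSR12 replicate 1, and both when only the 2 groups compared entered the fit.

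CP12 proteins tie up glyceraldehyde phosphate dehydrogenase and phosphoribulokinase in an inactive complex when light is low. CP12-2 (AT3G62410, chr3:23090944-23091580 in TAIR10.1) had the largest fold change of the 35 genes after heat. It was at 4195 and 4146 scaled reads in the control, 153 and 152 after heat, 1606 and 2024 at 12 hours and 10443 and 8957 at 84 hours. The groups were far apart and the replicates close. It was 27.1-fold lower after heat (log2 -4.76 ± 0.13, adjusted p = 1.37e-07), still 2.31-fold lower at 12 hours (adjusted p = 0.000143) and 2.32-fold higher than the control at 84 hours (adjusted p = 0.00076). CP12-1 (AT2G47400) was at 3851 and 3319 in the control and 3416 and 4244 after heat, with overlapping libraries and no call (log2 0.09, adjusted p = 0.731). It was lower at 12 hours, at 2425 and 1544 (log2 -0.89 ± 0.22, adjusted p = 0.0103, lost without CTRL replicate 1 or LHSR12 replicate 2), and at 3121 and 2538 at 84 hours. The call at 12 hours was also lost when only CTRL and LHSR12 entered the fit. Per kilobase, CP12-2 made up 61% and 64.2% of the CP12 sum in the control libraries, 6.04% and 4.89% after heat and 82.7% and 83.5% at 84 hours.

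**Figure D3:**
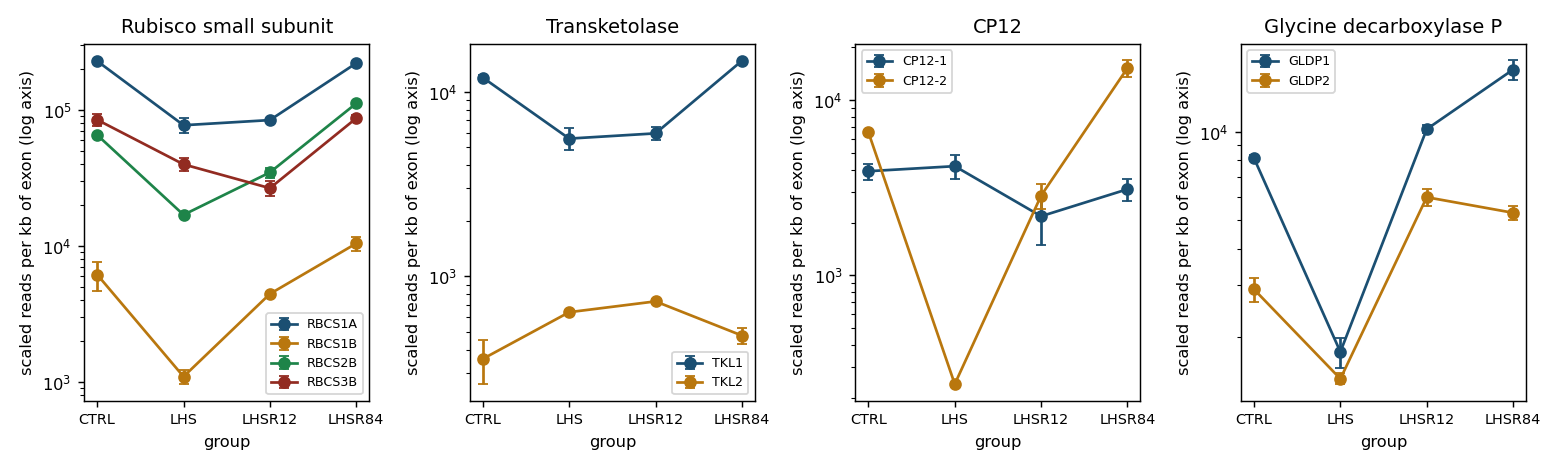
Mean scaled reads per kilobase of exon, on log axes, of the Rubisco small subunit, transketolase, CP12 and glycine decarboxylase P protein genes in the 4 groups, with bars of 1 SD (n = 2). The CP12-2 line drops below CP12-1 after heat and ends above it at 84 hours, while the TKL1 and TKL2 lines bend toward each other after heat.

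Photorespiration begins in the chloroplast with phosphoglycolate phosphatase. PGLP1, locus AT5G36790, was at 154 and 113 scaled reads in the control, 39.1 and 40.6 after heat, 66.7 and 73.5 at 12 hours and 189 and 164 at 84 hours. It was the lowest of the 35 genes per kilobase in each group, and its near-identical copy AT5G36700 was at 1.01 to 10.8, so reads matching both may have been left out and these levels are uncertain. PGLP1 fell by 1.70 on the log2 scale after heat (adjusted p = 0.000296).

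In the peroxisome, glycolate oxidase makes glyoxylate, and its main genes, the neighbours GOX1 and GOX2 on chromosome 3, are close in sequence. Reads could be split or lost between these 2 genes, so each level is uncertain. GOX1 (AT3G14420) was at 16236 and 14235 in the control, 12041 and 12078 after heat, 23290 and 25042 at 12 hours and 32467 and 27873 at 84 hours. The LHS libraries lay below the control without a call (log2 -0.33, adjusted p = 0.073). GOX1 was above the control at 12 hours (log2 0.67, adjusted p = 0.00631, lost without LHSR12 replicate 2) and 1.98-fold above it at 84 hours (adjusted p = 0.00354). Both calls above the control were lost when only the 2 groups compared entered the fit. GOX2 (AT3G14415) was at 14520 and 11897, 6729 and 6402, 14218 and 15234, and 20599 and 18328, a fall of 1.00 on the log2 scale with heat (adjusted p = 0.000295). Glyoxylate is turned to glycine by 2 aminotransferases. AGT1 (AT2G13360, chr2:5538740-5541479 in TAIR10.1), which takes the amino group from serine, was at 39022 and 25210 in the control, 4095 and 4097 after heat, 21041 and 23433 at 12 hours and 39611 and 33901 at 84 hours. It had the largest fall of the 12 photorespiratory genes, 7.66-fold (log2 -2.94 ± 0.21, adjusted p = 5.79e-06). GGT1 (AT1G23310), which uses glutamate, was at 30489 and 17681, 14051 and 13001, 29365 and 32605, and 44109 and 34392. Its control replicates were far apart, and its log2 fold change after heat, -0.78 ± 0.26 (adjusted p = 0.0244), was lost without any 1 of CTRL replicate 1 and the LHS and LHSR12 libraries, and when only CTRL and LHS entered the fit.

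In the mitochondrion, glycine decarboxylase and serine hydroxymethyltransferase join glycine into serine with release of CO2 and ammonia. The P proteins of the decarboxylase, GLDP1 and GLDP2, stood above the control at 84 hours. GLDP1 (AT4G33010, chr4:15926652-15931422 in TAIR10.1) was at 29660 and 28710 in the control, 6886 and 5839 after heat, 35824 and 37523 at 12 hours and 61773 and 55420 at 84 hours. It fell 4.60-fold with heat (log2 -2.20 ± 0.15, adjusted p = 5.56e-06), rose 5.78-fold in the first 12 hours (adjusted p = 4.32e-06) and was 2.01-fold above the control at 84 hours (adjusted p = 0.00409). GLDP2 (AT2G26080) was at 12304 and 10717, 5869 and 5519, 22619 and 24892, and 21804 and 20230. It fell 2.02-fold with heat (adjusted p = 0.000192) and was already 2.07-fold above the control at 12 hours (log2 1.05, adjusted p = 0.000345). The H and T proteins were below the control at 12 hours. GDCH (AT2G35370), the H protein that carries the reaction intermediate, was at 8295 and 8340 in the control, 3467 and 3307 after heat, 2808 and 3527 at 12 hours and 12710 and 13399 at 84 hours. GDCT (AT1G11860), the T protein, was at 32037 and 31144, 11456 and 12274, 15981 and 18625, and 45568 and 44807. At 12 hours they stood at -1.40 (adjusted p = 5.59e-05) and -0.87 (adjusted p = 0.0016) on the log2 scale against the control, where GLDP1 showed no call (0.33, adjusted p = 0.118). At 84 hours GDCH too was called above the control (log2 0.65, adjusted p = 0.0116), and GDCT was not called (log2 0.52, adjusted p = 0.0526). The GDCH call was lost when only CTRL and LHSR84 entered the fit and in some fits without 1 library.

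SHM1 (AT4G37930), the serine hydroxymethyltransferase, was at 41344 and 32612 in the control, 13310 and 12303 after heat, 17274 and 19958 at 12 hours and 45848 and 41792 at 84 hours. It fell by 1.52 on the log2 scale with heat (adjusted p = 8.37e-05) and was still low at 12 hours (log2 -0.98, adjusted p = 0.00204). HPR1 (AT1G68010), the peroxisomal hydroxypyruvate reductase that makes glycerate, was at 16733 and 13450, 5397 and 5305, 13986 and 15608, and 25161 and 21175. It was called lower after heat (log2 -1.49, adjusted p = 4.89e-05) and overlapped the control at 12 hours. GLYK, glycerate kinase, returns the carbon to the Calvin cycle in the chloroplast. GLYK (AT1G80380) was at 5537 and 3319 in the control, 3019 and 2782 after heat, 1771 and 1896 at 12 hours and 3615 and 3296 at 84 hours. It was lowest at 12 hours (log2 -1.23 ± 0.21, adjusted p = 0.0016), and its call after heat (log2 -0.56, adjusted p = 0.0381) was lost without any 1 library but CTRL replicate 2, with edgeR, with a pseudocount of 0.1, with no filter on low values and when only CTRL and LHS entered the fit. The genes of the peroxisome (GOX1, GOX2, GGT1, AGT1 and HPR1) had log2 fold changes of -0.50 to 0.67 at 12 hours.

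Ratios of close relatives were taken within each library, where no scaling enters, and tested over the 4 groups with an exact permutation test (n = 2 per group, smallest possible p 0.009524), adjusted over 9 ratios. The ratio was called different between groups for 6 of the 9. The log2 ratio of CP12-1 to CP12-2 was -0.22 ± 0.14 (SD, n = 2) in the control, 4.64 ± 0.23 after heat, 0.10 ± 0.70 at 12 hours and -1.78 ± 0.05 at 84 hours (exact permutation, adjusted p = 0.0429). For GAPA-1 to GAPA-2 it was 0.95, 2.27, 1.52 and 1.89 in the same order, and for GOX1 to GOX2 it was 0.21, 0.88, 0.71 and 0.63. For GAPA and GOX the ratio after 84 hours was still above both control libraries, and for CP12 it was below both. The GOX ratio carries the uncertainty in how reads were split between GOX1 and GOX2. GLDP1 to GLDP2 went from 1.35 to 0.16 after heat and 0.63 at 12 hours, and was 1.48 at 84 hours, above both control libraries by a small margin. PGK1 to PGK2 was 2.71, 1.63, 1.88 and 2.29. FBA1 to FBA2 was -2.29, -1.79, -0.89 and -1.59, highest at 12 hours. These 5 ratios had an exact permutation adjusted p of 0.0171 each. RBCS1A to the sum of the other RBCS genes (0.60, 0.40, 0.45 and 0.18), FBA3 to FBA1 and FBA2 together (-3.39, -1.86, -3.09 and -3.54) and TKL1 to TKL2 (5.02, 3.05, 2.95 and 4.88) missed the threshold, with exact permutation adjusted p of 0.0643, 0.0643 and 0.0762. Where groups share a level, exchanging their libraries hardly changes the statistic, so a miss does not show that a ratio held. TKL1 to TKL2 was 4.71 to 5.34 in the CTRL and LHSR84 libraries and 2.90 to 3.19 in the LHS and LHSR12 libraries. Without LHSR84 replicate 1 or 2, the adjusted p of the 6 ratios rose to 0.0514 or 0.0571, and for CP12-1 to CP12-2 and PGK1 to PGK2 the call was also lost without LHS replicate 1 or 2 (0.0514 to 0.0735). The RBCS ratio passed without LHSR12 replicate 1 or 2 (0.049), FBA3 without CTRL replicate 1 or 2 (0.049 and 0.0429) and TKL1 to TKL2 without CTRL replicate 2 (0.0286).

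**Figure D4:**
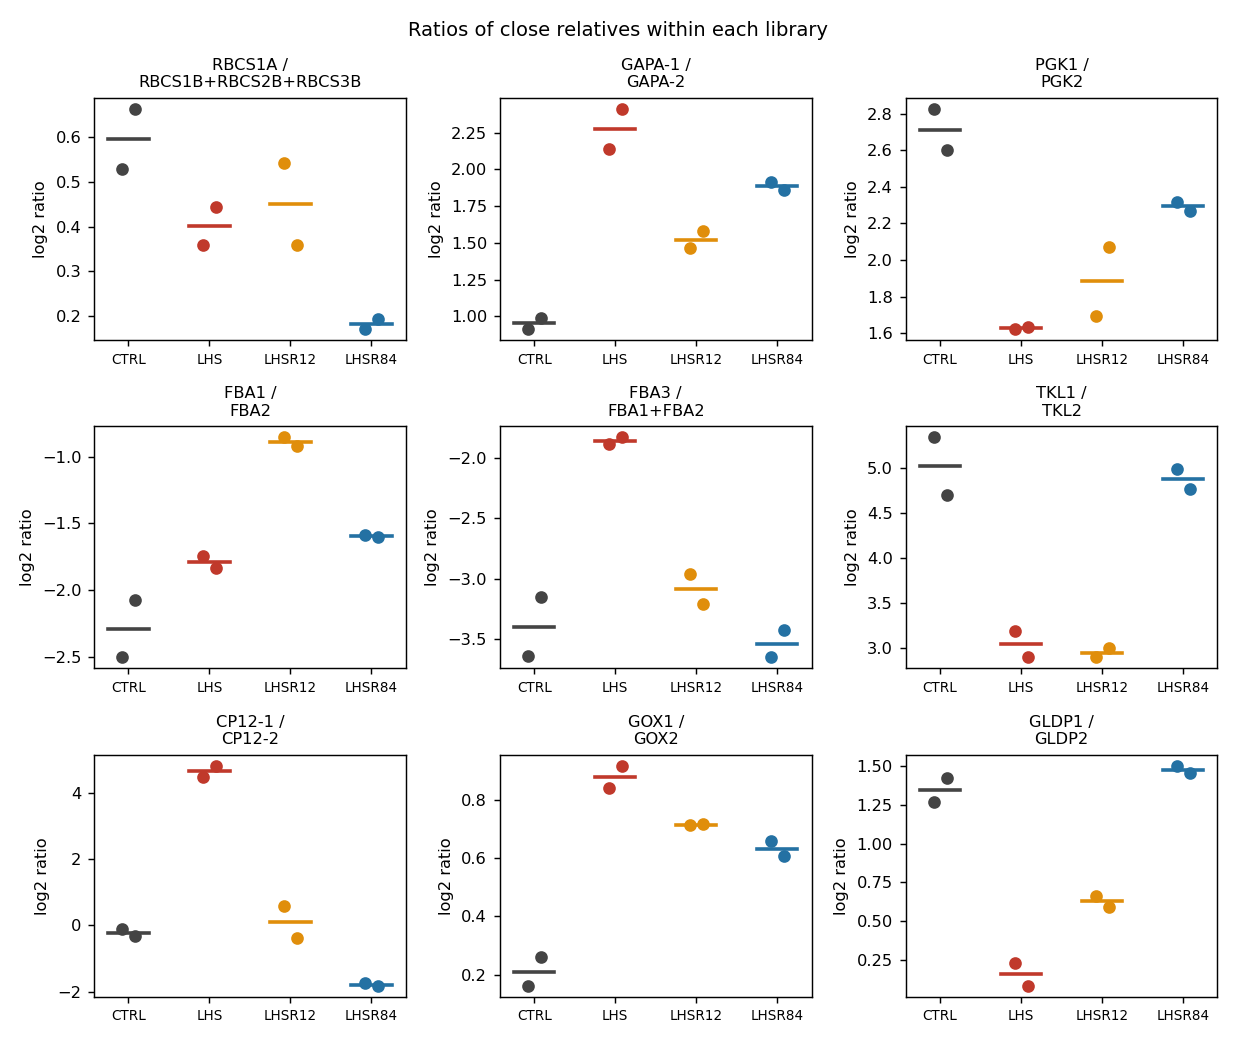
Log2 ratio of scaled reads of close relatives within each library, 1 panel per ratio; points are libraries, bars the mean of the group, and the y axes differ and do not start at 0. The CP12-1 to CP12-2 panel spans most, from -1.82 to 4.80, and the GLDP1 to GLDP2 and TKL1 to TKL2 panels are lowest in the LHS and LHSR12 libraries.

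The first 12 hours of recovery were compared with the end of heat directly. From LHS to LHSR12, 22 of the 35 genes rose and 4 fell (PGK2, TPI, GLYK and CP12-1), against 31.1% and 31.1% of all loci, with a median log2 fold change of 0.58 over the 35 genes and 0.00 over all loci. Photorespiration had 10 of 12 genes rise and the Calvin cycle 12 of 23. CP12-2 rose most, 11.7-fold (log2 3.55 ± 0.13, adjusted p = 4.96e-07), before GLDP1, AGT1 (log2 2.44, adjusted p = 2.1e-05) and SBPase. RBCS1A, RBCS3B, PGK1, TKL1, RPE, RPI and GDCH showed no call over these 12 hours and rose from then to 84 hours. Of those rises, that of RBCS1A was lost without either LHSR12 library or when only the 2 groups entered the fit, and that of RPE without any 1 LHS or LHSR84 library or LHSR12 replicate 1. The count that rose was 16 to 22 over the fits without 1 library, lowest without LHS replicate 1 or LHSR12 replicate 2. The count that fell was 2 without LHS replicate 1, LHS replicate 2 or LHSR12 replicate 2, and 2 under scaling to gene loci.

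From LHSR12 to LHSR84, 24 of the 35 genes rose and 2 fell (FBA1 and TKL2), against 16.5% and 19.5% of all loci, with a median log2 fold change of 0.80 over the 35 genes and -0.08 over all loci. CP12-2 again rose most (log2 2.42, adjusted p = 1.07e-05), then GDCH (log2 2.05 ± 0.13, adjusted p = 2.11e-05) and PGK1 (log2 1.80 ± 0.14, adjusted p = 6.67e-05). Of the 35 genes, 14 rose in both intervals. Among these, RBCS1B, RBCS2B, SBPase and CP12-2 held both calls in each of the alternatives, and the others lost a call in some. Another 7 (RCA, GAPA-2, FBA2, GOX1, GOX2, GLDP2 and GGT1) rose in the first with no call in the second, and 7 rose in the second with no call in the first. FBA1 rose in the first and fell in the second, while PGK2, TPI and GLYK fell in the first and rose in the second. The share of all loci with each of these paths was not counted, and whether the rises of the 2 intervals differed was not tested. The count that rose was 17 to 26 over the fits without 1 library. FBA1 and TKL2 both lost their call without any 1 LHSR12 or LHSR84 library, and TKL2 also without either LHS library. FBA1 lost it as well with TMM scaling, with edgeR and when only the 2 groups entered the fit.

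The rest of the pathways was read from lists of genes. Over all loci, 31.1% were lower and 35.4% higher after heat, 20% and 24.8% at 12 hours and 4.87% and 8.59% at 84 hours. Of 19 other photorespiratory enzymes and transporters, 11 were lower and 1 higher after heat, 3 lower and 6 higher at 12 hours and 0 lower and 4 higher at 84 hours. The counts at 12 hours are near the shares of all loci. PLGG1, the plastid exporter of glycolate and importer of glycerate, was at 2434 and 1786 in the control and 282 and 220 after heat (log2 -3.06, adjusted p = 5.09e-06). CAT2, the leaf catalase that removes the peroxide made by glycolate oxidase, was the 1 that rose with heat. It was at 11577 and 9524 in the control, 17047 and 15928 after heat, 51433 and 50698 at 12 hours and 28901 and 18162 at 84 hours, 4.86-fold above the control at 12 hours (log2 2.28, adjusted p = 7.95e-05). GS2, the plastid glutamine synthetase that takes up the released ammonia, was lower at 12 hours (log2 -1.30, adjusted p = 0.000424).

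Of 22 other carbon fixation genes (Rubisco assembly and repair, thioredoxins, carbonic anhydrases), 13 were lower and 6 higher after heat, 14 lower and 0 higher at 12 hours and 2 lower and 0 higher at 84 hours. Chaperonin subunits, which fold the Rubisco large subunit, were among those that rose with heat (CPN60A1, CPN60B2, CPN20 and, near the threshold at an adjusted p of 0.0478, CPN60B1). CPN10 was lower after heat (log2 -0.90, adjusted p = 0.000444). CPN60B2 was at 2597 and 5611 in the control and 68680 and 69579 after heat, 18.1-fold higher (log2 4.18, adjusted p = 6.23e-06), and CPN60A1 rose by log2 2.67 (adjusted p = 1.75e-05). CPN60B2 was back at 6373 and 5559 at 12 hours. The Rubisco assembly chaperone RBCX1 was at 2146 and 1118 in the control, 109 and 121 after heat, 6.89 and 4.64 at 12 hours and 702 and 549 at 84 hours (log2 -7.86 at 12 hours, adjusted p = 1.02e-06). Of 10 relatives of the Calvin cycle enzymes outside the plastid, 6 were lower and 4 higher after heat, 4 and 4 at 12 hours and 1 and 0 at 84 hours. The aldolase FBA6 rose 6.57-fold, from 3735 and 3736 to 23613 and 25484 (adjusted p = 4.43e-07), and the aldolase FBA5 fell 33.4-fold, from 14460 and 9128 to 338 and 348 (adjusted p = 1.03e-06).

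The antenna genes, which encode the light-harvesting proteins and are the nearest other group of nuclear photosynthesis genes, are set beside them. After heat 17 of 18 were lower, with a median log2 fold change of -3.59, against -1.30 for the 35 genes. At 84 hours 17 of the 18 were lower and 1 higher (LHCB4.3), with a median of -3.49, where 0 of the 35 genes were lower and their median was 0.41. The antenna share of the summed value was 8.41% and 5.35% in the control, 0.537% and 0.639% after heat, 1.39% and 1.62% at 12 hours and 1.03% and 1.18% at 84 hours. The control replicates differed by a median of 0.83 on the log2 scale over the antenna genes and by 0.21 over the 35 genes. No test was made between these groups of genes.

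**Figure D5:**
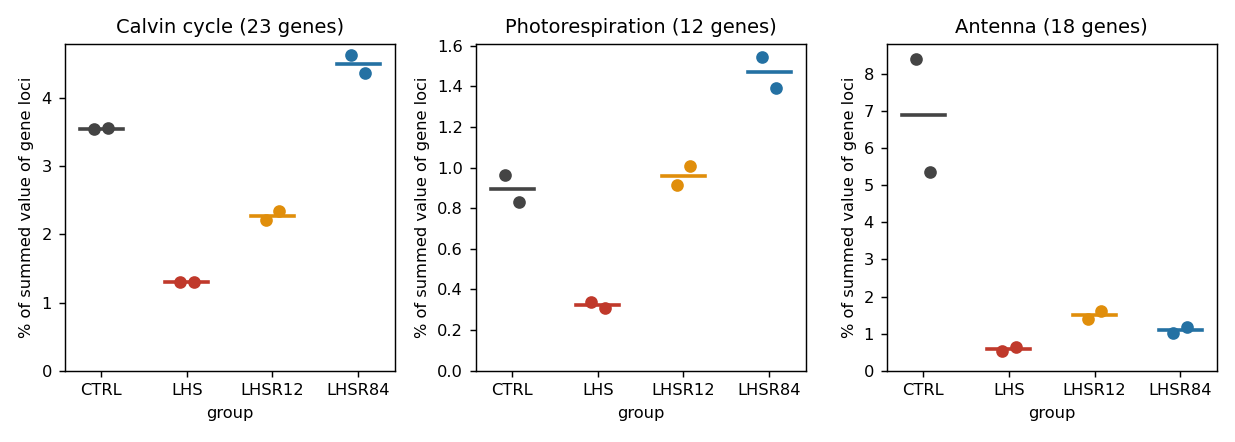
Share of the summed value of gene loci held by the Calvin cycle genes, the photorespiratory genes and the antenna genes in each library, in percent; points are libraries, bars group means, and each y axis starts at 0 with its own scale. The Calvin cycle and photorespiration points are lowest in LHS and highest in LHSR84 (4.37% and 4.63%, 1.39% and 1.55%), while the antenna points stay at or below 1.62% in all heated groups.

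Of 5 clock genes, 3 were lower and 1 higher than in the control after heat, 3 lower and 2 higher at 12 hours and 3 lower and 1 higher at 84 hours. LHY, a clock gene known to peak at dawn, was at 107 and 57.9 scaled reads in the control, 37.0 and 32.4 after heat, 12504 and 13841 at 12 hours and 423 and 430 at 84 hours. CCA1, its close relative known to peak at the same time, was at 92.1 and 55.8, 276 and 316, 7531 and 8229, and 95.7 and 91.7. The dawn genes thus differed after heat, where LHY was lower (log2 -1.16, adjusted p = 0.00319) and CCA1 higher (log2 2.03, adjusted p = 5.82e-05), and both were far above the control at 12 hours. TOC1, known to peak in the evening, was at 7996 and 6626 in the control, 3128 and 3328 after heat, 791 and 733 at 12 hours and 4517 and 4120 at 84 hours. PRR5 was lower in all 3 comparisons with the control (log2 -1.77, -5.94 and -2.75), and GI was not called after heat and lower at 12 and 84 hours (log2 -3.23 and -4.19). Many of the 35 genes are known to vary over the day. The hour of harvest is not in the labels, and its part in the differences at 12 hours and in the other comparisons was not tested.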

How the data were processed

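Whole seedlings gave 8 RNA libraries, 2 for each of the 4 groups. The labels state TRIzol extraction and a library type that keeps strand. The submitters' processing notes list the build TAIR10 and the tools STAR 2.5.3a, HTSeq 0.9.1, CASAVA and DESeq2 1.14.1, with no roles. The deposited table holds a signal per locus and library: every value was a whole multiple of 1 step per library (tolerance 0.001), so it is a read count divided by 1 factor. Reads were not recovered for LHS replicate 1, whose step was too close to 1.

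Loci with a mean of at least 1 (27638) were tested on log2(value + 1) with limma 3.58.1 in R 4.3.3 (lmFit, eBayes with trend), all 8 libraries in 1 fit, with 5 comparisons and Benjamini-Hochberg adjustment over all loci tested. Fold changes are on that log2 scale, which understates the change of low genes. Ratios of relatives were tested by exact permutation of the between-group sum of squares, which is one-sided by construction. Scripts were tested on simulated data. Alternatives were a pseudocount of 0.1, no filter, a mean of at least 10, only the groups compared, a replicate block, TMM scaling, scaling to gene loci, DESeq2 1.42.0 and edgeR 4.0.16 with the 7 libraries of known reads, and each library left out. The ratios were also taken with a pseudocount of 10 and with a replicate block.

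The members and the gene lists were chosen with earlier results of these data known. Every member is named with levels, and a fold change with its adjusted p is given for called members or beside a close relative. From each other list the text names genes among the 2 largest called rises and 2 largest called falls of a comparison. The chaperonin genes of the carbon fixation list are all named. All 35 loci matched RefSeq's TAIR10.1 annotation, from which exon lengths, overlaps and upstream sequence were taken.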

Additional observations from a re-analysis of the deposited data

How the results depend on the processing

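No called value of the 35 genes changed direction under the alternatives run. Of 122 called values, 33 lost their call when only the groups compared entered the fit, 10 with edgeR, 4 with DESeq2, 4 under scaling to gene loci, 3 with the replicate block, 2 without a filter, 1 with a pseudocount of 0.1, 1 with TMM, 0 with a mean of at least 10, and 3 to 29 when 1 library was left out. With only the groups compared, 11 genes were lower and 3 higher in LHSR12 against CTRL, 0 were higher in LHSR84 against CTRL (365 loci called in all, against 3718), and 1 was lower in LHSR84 against LHSR12. That last count was also 1 with the replicate block, TMM and edgeR. Scaling to gene loci left 2 lower in LHSR12 against LHS. It moved the median of all loci to 0.25 in LHSR12 against CTRL and against LHS and to -0.14 in LHSR84 against LHSR12, so values there read relative to that shift. The replicate block changed 3 calls, FBPase and GAPA-1 in LHSR12 against LHS and FBA1 in LHSR84 against LHSR12. Deviations of the same replicate number correlated at -0.06 to 0.04 between groups over all loci tested, so no pairing by number was seen there. Loci of low value count alike in this correlation, and pairing among abundant genes alone was not tested. For the ratios, a replicate block (groups permuted within each replicate number, chosen after seeing the data, smallest unadjusted p 0.0417) gave an exact permutation adjusted p of 0.075 for GAPA-1 to GAPA-2, PGK1 to PGK2, FBA1 to FBA2, GOX1 to GOX2 and GLDP1 to GLDP2, each at the smallest p, and 0.125 for CP12-1 to CP12-2, so that all 6 calls were lost.

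Over the fits without 1 library, where the lone library of a group is assumed to vary like the others, the counts ranged from 25 to 30 (lower, LHS against CTRL), 2 to 2 (higher), 14 to 22 and 4 to 5 (lower and higher, LHSR12 against CTRL), 0 to 2 and 5 to 13 (LHSR84 against CTRL), 2 to 5 and 16 to 22 (LHSR12 against LHS) and 0 to 2 and 17 to 26 (LHSR84 against LHSR12). The exact permutation adjusted p ranged from 0.049 to 0.152 for RBCS1A over its relatives, 0.0143 to 0.0514 for GAPA-1 to GAPA-2, FBA1 to FBA2, CP12-1 to CP12-2, GOX1 to GOX2 and GLDP1 to GLDP2, 0.0143 to 0.0735 for PGK1 to PGK2, 0.0429 to 0.107 for FBA3 and 0.0286 to 0.098 for TKL1 to TKL2. A pseudocount of 10 left these p-values as they were. With 2 libraries a group, small differences such as those at 84 hours are at the limit of what can be called.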
